A study of Mus musculus with 4 samples.

Results

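The genes described are 34 genes of S phase whose products license replication origins, copy DNA, supply its nucleotides or open the way into S phase. They were taken as a list of symbols, and all 34 were found among the 31054 features of both mRNA matrices. The cells came from the ears of neonatal mice at postnatal day 8 on the C57BL/6 strain background, in 2 libraries that the labels call biological replicates. All cells were enriched for CD31 and sorted as live cells positive for CD31 and for Cdh5CreERT2-Rtom. Its Cdh5CreERT2 part is an allele in which the promoter of the endothelial gene Cdh5 drives CreERT2. The libraries form 1 group with no contrast of treatments, so every comparison sets cell classes of the same libraries against each other. All p-values have only 2 libraries behind them. The labels do not say how many animals a library holds.

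DNA replication begins when the origin recognition complex, Cdc6 and Cdt1 load the Mcm2 to Mcm7 helicase onto origins in G1, a step called licensing. Cyclin E, encoded by Ccne1 and Ccne2, and the transcription factor E2f1 promote entry into S phase, and E2F factors are known to switch on many replication genes. Cdc45, the GINS complex and Mcm10 then activate the helicase, primase and polymerases copy the strands, and the clamp Pcna keeps the polymerases on DNA. In the vessels of a growing skin, endothelial division is known to occur mainly in veins and capillaries, while mature arterial cells are known to divide little.

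Promoter windows are shown for 5 members that the results turn on, to set 3 members with an E2F-type motif beside 2 without. The motif was any of TTTCCCGC, TTTGGCGC, TTTCGCGC and TTTGCCGC on either strand, and the matches may overlap each other. Of the 34 members, 28 matched by symbol in the RefSeq promoter table (build GRCm38.p6), whose windows run from 250 bases before a gene's start to 50 bases after it. Mcm4, Gins2, Rfc2, Gmnn, Ccne2 and Gins1 were not matched. The 250 bases before the start given in that table are printed 5′ to 3′ on the gene's strand, in lower case with the E2F-type motifs in capitals. The Cdc6 window lies at chr11:98907901-98908150 on the plus strand, the Mcm5 window at chr8:75109259-75109508 on the plus strand and the Mcm6 window at chr1:128359706-128359955 on the minus strand. The Rrm2 window lies at chr12:24708004-24708253 on the plus strand and the Tk1 window at chr11:117826015-117826264 on the minus strand. The GENCODE annotation places some starts elsewhere, at 98907801 for Cdc6, 24708241 for Rrm2 and 117826092 for Tk1. By those starts, the whole Cdc6 window and parts of the Rrm2 and Tk1 windows lie inside the gene.
Cdc6: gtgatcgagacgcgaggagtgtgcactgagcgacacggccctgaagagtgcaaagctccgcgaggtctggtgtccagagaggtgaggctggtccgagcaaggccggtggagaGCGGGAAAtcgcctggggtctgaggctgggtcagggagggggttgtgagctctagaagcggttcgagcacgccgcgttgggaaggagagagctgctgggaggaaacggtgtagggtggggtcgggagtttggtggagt
Mcm5: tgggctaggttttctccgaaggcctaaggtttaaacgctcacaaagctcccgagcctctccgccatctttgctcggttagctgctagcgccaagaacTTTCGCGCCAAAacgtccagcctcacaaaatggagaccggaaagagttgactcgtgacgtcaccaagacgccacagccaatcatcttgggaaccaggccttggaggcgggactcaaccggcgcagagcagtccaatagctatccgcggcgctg
Mcm6: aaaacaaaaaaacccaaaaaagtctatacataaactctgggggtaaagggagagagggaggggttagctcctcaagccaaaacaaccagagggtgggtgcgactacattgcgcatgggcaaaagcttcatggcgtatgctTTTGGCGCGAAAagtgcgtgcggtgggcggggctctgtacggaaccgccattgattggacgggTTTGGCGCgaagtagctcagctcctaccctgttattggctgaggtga
Rrm2: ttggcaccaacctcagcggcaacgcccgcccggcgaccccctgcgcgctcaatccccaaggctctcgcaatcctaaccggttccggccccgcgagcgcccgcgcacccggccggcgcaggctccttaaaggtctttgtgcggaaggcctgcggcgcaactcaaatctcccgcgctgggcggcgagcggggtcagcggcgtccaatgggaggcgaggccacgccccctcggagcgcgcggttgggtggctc
Tk1: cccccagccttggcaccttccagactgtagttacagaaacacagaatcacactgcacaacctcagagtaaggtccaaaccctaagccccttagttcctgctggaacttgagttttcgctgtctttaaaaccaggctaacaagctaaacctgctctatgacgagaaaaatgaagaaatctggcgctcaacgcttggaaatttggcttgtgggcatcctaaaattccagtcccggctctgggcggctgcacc
An E2F-type motif was present in the full windows of 11 of the 28 matched members (39.3%), against 704 of 27025 genes in the table (2.60%) and 2.26% of its 32851 windows. In Cdc6 the match to TTTCCCGC is on the minus strand, so it is printed as GCGGGAAA. In Mcm5, TTTCGCGC and TTTGGCGC overlap in 1 run, and in Mcm6 a like overlap is joined by a second TTTGGCGC nearer the start. The CCAAT motif (CCAAT, either strand) was present in 16 of 28 members (57.1%), against 41.1% of genes, and TTTGAA was present in 3 of 28 (10.7%), against 20.2% of genes. A match describes letters in a window and says nothing of whether a factor binds there.

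Cells were assigned to classes by fixed marker genes, and the classes carried their own markers. Lymphatic-like cells were led by Ccl21a and Lyve1, artery-like cells by Gkn3 and Gja5, vein-like cells by Selp and Ackr1, capillary-like cells by Car4 and Timp4, and tip-like cells by Kcne3, Adm and Esm1. Blood endothelial cells with no clear best class are called other blood. Their leading genes held interferon-response genes such as Ccl5, Oasl1 and Rsad2, but also the capillary markers Lrat and Col13a1. They carried a median of 5 of 10 capillary markers, which summed to 3905 and 3941 CPM, against 6243 and 5765 CPM in capillary-like cells. Libraries 1 and 2 held 1350 and 2013 gated endothelial cells of 1498 and 2239 cells kept, with 8459 and 8982 UMIs (unique transcript molecules counted) per kept cell at the median, and 3 barcodes occurred in both libraries. Pericyte-like cells (93 and 132) carried 8 of 10 pericyte markers at the median but also 6 and 5 of 6 endothelial markers, with endothelial markers summing to 3342 and 2944 CPM and fibroblast markers to 1011 and 1424 CPM. How much of their RNA came from other cells was not tested. CPM here are UMIs per 1000000 UMIs of a class, and the 34 genes made up 0.129% and 0.137% of all UMIs of the libraries.

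All 34 members were higher in dividing than in non-dividing cells, in lymphatic and in blood endothelium. A cell was called dividing with at least 1 UMI each of Mki67, the antigen Ki-67 of cycling cells, and Top2a, a topoisomerase made from S phase to mitosis. It was called non-dividing with no UMI of either gene, and neither gene is a member. In lymphatic endothelium, 37 and 84 dividing cells in libraries 1 and 2 were compared with 243 and 456 non-dividing cells. In blood endothelium, 107 and 183 dividing cells were compared with 851 and 1048 non-dividing cells. The summed level of the members was 4294 and 3330.4 CPM in dividing and 601 and 789 CPM in non-dividing lymphatic cells. It was 3907 and 3418 CPM in dividing and 532 and 639 CPM in non-dividing blood cells. Both dividing sums thus lay above both non-dividing sums in each lineage. In the edgeR quasi-likelihood test, 34 of 34 members passed an adjusted p of 0.05 as higher in lymphatic cells, where 22.6% of 11000 genes passed in either direction and 11.3% as higher. The same 34 of 34 passed as higher in blood cells, where 26.1% of genes passed and 15.1% as higher. Both dividing values lay above both non-dividing values for 34 of 34 members in each lineage, against 26.5% of all genes tested in lymphatic and 26.7% in blood cells. The median log2 change of the members was 2.38 in lymphatic and 2.79 in blood cells, against -0.08 and -0.03 over all genes tested. Dividing cells were deeper, with a median of 17762 and 19785.5 UMIs against 8186 and 8882.5 in non-dividing lymphatic cells. A second state was set from cells thinned to 4000 UMIs, where a UMI of either gene made a cell dividing. With this thinned state, which changes both the depth and the rule, 33 members were called in lymphatic and 34 in blood cells.

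**Figure D1:**
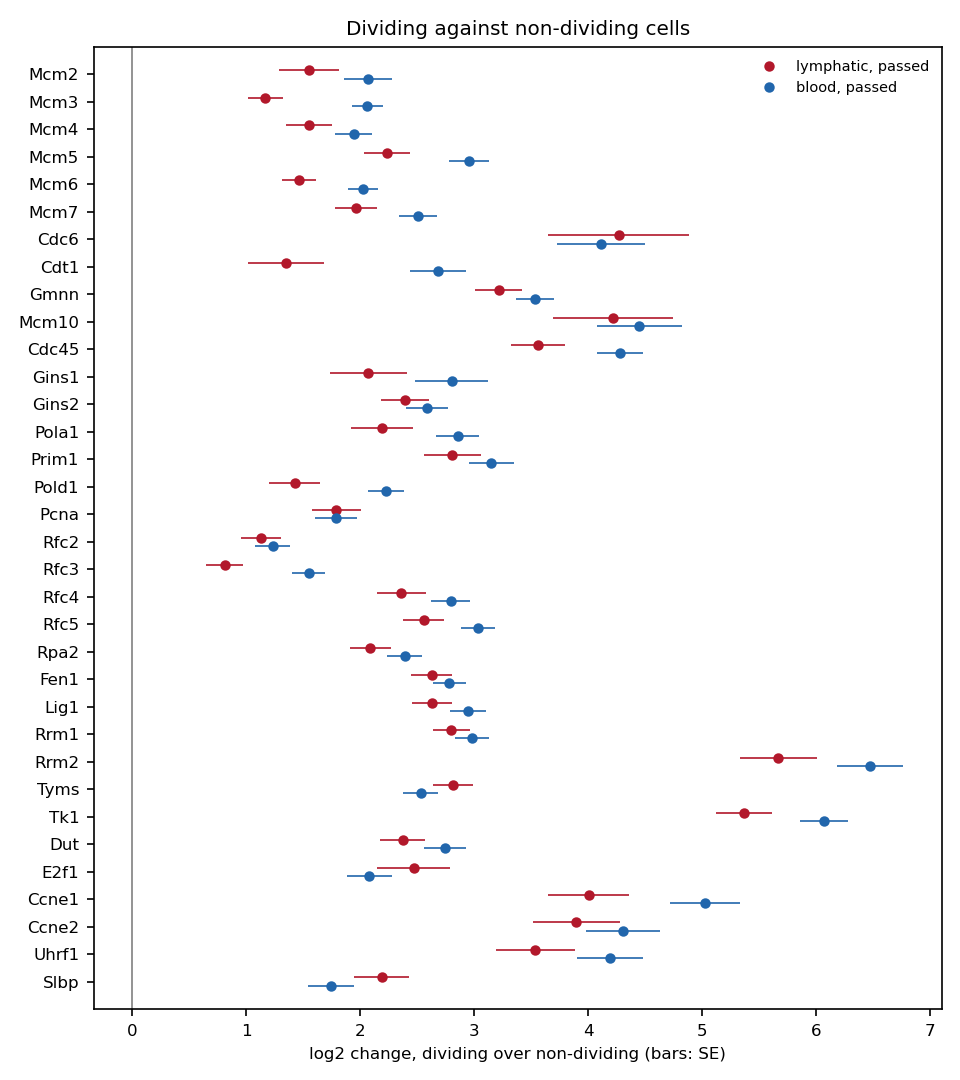
Log2 change of each of the 34 genes in dividing over non-dividing cells (x axis, bars are SE, n = 2 libraries), with genes down the y axis in order of role, lymphatic cells in red and blood cells in blue. Every point lies right of 0, and Rrm2 and Tk1 lie farthest right in both lineages.

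Among the members, Rrm2 and Tk1 of the nucleotide supply genes held the largest changes. Rrm2, the small subunit of ribonucleotide reductase, had 274 and 231 CPM in dividing and 2.26 and 3.32 CPM in non-dividing blood cells. Its log2 change was 6.47 ± 0.29 (SE, edgeR adjusted p = 9.09e-10), a ratio of mean CPM of 90.6. In lymphatic cells, Rrm2 had 298 and 156 CPM in dividing and 1.29 and 5.32 CPM in non-dividing cells. Rrm2 was thus near 0 in the non-dividing cells of both lineages. Thymidine kinase Tk1, which salvages thymidine, had 297 and 218 CPM in dividing and 4.51 and 3.32 CPM in non-dividing blood cells, a log2 change of 6.07 ± 0.21 (edgeR adjusted p = 6.66e-11). In cells thinned to 4000 UMIs, Rrm2 was detected in 55.9% and 48.3% of dividing and 0.985% and 1.02% of non-dividing endothelial cells of libraries 1 and 2. Tk1 was detected in 65.7% and 53.2% of dividing and 1.67% and 1.45% of non-dividing cells. The other 3 genes of this group kept a clear level in non-dividing cells. Tyms, thymidylate synthase, had 366 and 299.5 CPM in dividing and 50.3 and 67.1 CPM in non-dividing blood cells. Rrm1, the large subunit of ribonucleotide reductase, had 158 and 169.6 CPM and 19.7 and 22.7 CPM in the same order. Their log2 changes were 2.53 ± 0.15 for Tyms, 2.98 ± 0.15 for Rrm1 and 2.74 ± 0.19 for Dut, which removes dUTP from the nucleotide pool. For all 5 genes, both dividing values lay above both non-dividing values in each lineage.

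In blood cells, the S-phase entry genes split into cyclins with a near-zero level in non-dividing cells and a transcription factor with a clear level there. Ccne1 had 28.6 and 31.9 CPM in dividing and 0.846 and 0.997 CPM in non-dividing blood cells, a log2 change of 5.02 ± 0.31 (edgeR adjusted p = 2.42e-08). Ccne2 had 30.3 and 20.2 CPM in dividing and 0.987 and 1.44 CPM in non-dividing blood cells, a log2 change of 4.30 ± 0.32. E2f1 had 69.2 and 79.7 CPM in dividing and 13.7 and 22.3 CPM in non-dividing blood cells, a smaller log2 change of 2.08 ± 0.20. In lymphatic cells the split was smaller. Ccne1 had 42.7 and 28.4 CPM in dividing and 2.15 and 1.91 CPM in non-dividing lymphatic cells. E2f1 had a mean of 45.5 CPM in dividing and only 6.82 CPM in non-dividing lymphatic cells. E2f1 changed there by 2.47 ± 0.32.

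Among the 9 licensing genes, the helicase subunits changed less than the loading factor Cdc6 and the licensing inhibitor Gmnn. Mcm2 to Mcm7 had log2 changes between 1.17 (Mcm3) and 2.24 (Mcm5) in lymphatic cells, and between 1.94 (Mcm4) and 2.95 (Mcm5) in blood cells. Mcm3, for instance, had 142 and 122 CPM in dividing and 52.4 and 59.3 CPM in non-dividing lymphatic cells. Mcm5 had 119 and 117 CPM in dividing and 18.5 and 28.1 CPM in non-dividing lymphatic cells. The Mcm genes were therefore well above 0 in cells without Mki67 and Top2a. Cdc6 had 33.2 and 18.1 CPM in dividing and 2.26 and 0.775 CPM in non-dividing blood cells, a log2 change of 4.11 ± 0.39. Gmnn, which blocks Cdt1 after licensing, had 178 and 147 CPM in dividing and 13.1 and 15.2 CPM in non-dividing blood cells, a log2 change of 3.53 ± 0.17. Cdt1 itself had 39.4 and 35.1 CPM and 5.36 and 6.31 CPM in the same order, a log2 change of 2.68 ± 0.25. All 9 genes were higher in both libraries. Differences between members were not tested.

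The 4 helicase activation genes had a median log2 change of 2.98 in lymphatic and 3.54 in blood cells. Cdc45 had 51.4 and 54.9 CPM in dividing and 2.54 and 2.99 CPM in non-dividing blood cells, a log2 change of 4.28 ± 0.20. Mcm10 had 17.1 and 20.5 CPM and 0.423 and 1.22 CPM in the same order, a log2 change of 4.45 ± 0.37. The GINS subunits changed less, by 2.80 ± 0.32 for Gins1 and 2.59 ± 0.18 for Gins2. Of the copying enzymes, primase Prim1 had 92.4 and 72.6 CPM in dividing and 9.87 and 11.7 CPM in non-dividing lymphatic cells (log2 change 2.81 ± 0.25). The catalytic subunits Pola1 and Pold1 of polymerases alpha and delta changed by 2.86 ± 0.19 and 2.23 ± 0.16 in blood cells.

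The smallest changes were those of 2 clamp loader genes, Rfc2 in blood and Rfc3 in lymphatic cells. Rfc2, a loader subunit, had 111 and 94.9 CPM in dividing and 43.6 and 45.7 CPM in non-dividing blood cells, a log2 change of 1.23 ± 0.16 (edgeR adjusted p = 4.82e-05). Its partner Rfc3 had 85.5 and 70.8 CPM in dividing and 39.9 and 44.0 CPM in non-dividing lymphatic cells, a log2 change of 0.81 ± 0.16 (edgeR adjusted p = 0.00254). Rfc4 and Rfc5, of the same complex, changed more, by 2.79 ± 0.17 and 3.03 ± 0.15 in blood cells. The clamp Pcna had 93.7 and 101 CPM in dividing and 23.0 and 34.7 CPM in non-dividing blood cells, a log2 change of 1.79 ± 0.18, and Rpa2 changed by 2.39 ± 0.16. The flap nuclease Fen1 and the ligase Lig1, which finish lagging-strand fragments, changed by 2.78 ± 0.15 and 2.95 ± 0.16. Uhrf1, which carries DNA methylation onto new strands, had 102 and 81.1 CPM in dividing and 3.67 and 6.20 CPM in non-dividing blood cells, a log2 change of 4.19 ± 0.29. Slbp, which binds histone mRNA, changed by 1.74 ± 0.20.

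Other replication genes, on a list of 62 that holds no member, moved in the same direction. Of 62 tested, 51 were higher and 0 lower in dividing lymphatic cells, and 56 were higher and 1 lower in dividing blood cells, with medians of 1.58 and 1.95. Ccna2, the S-phase cyclin A, had 233 and 181 CPM in dividing and 0.705 and 0.886 CPM in non-dividing blood cells, a log2 change of 7.96 ± 0.19. Clspn, a replication checkpoint adaptor, changed by 5.08 ± 0.27 in lymphatic cells. In blood cells Dbf4, the activator of the Cdc7 kinase, changed by 2.80 ± 0.13. Of 18 genes of G1 and cell cycle arrest, 6 were higher and 4 lower in lymphatic cells, and 7 were higher and 5 lower in blood cells. Ccnd2, a D-type cyclin, was lower in dividing blood cells, with a log2 change of -1.68 ± 0.14, and the CDK inhibitor Cdkn2c was higher, by 4.12 ± 0.19.

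The change between dividing and non-dividing cells was not shown to differ between the lineages. In the edgeR test of the difference (lymphatic minus blood), 0 of 34 members passed, where 0.509% of all genes passed, and 7 members had an unadjusted p under 0.05. DESeq2 also called 0. The difference was negative for 29 of 34 members, with a median of -0.42 against -0.08 over all genes. It was -0.90 ± 0.20 for Mcm3 (edgeR adjusted p = 0.0903) and -0.74 ± 0.21 for Rfc3 (edgeR adjusted p = 0.195). Of the genes outside the module, E2f2, a relative of E2f1, passed with -4.18 ± 0.69 (edgeR adjusted p = 0.0236).

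Per cell, the members' UMIs followed Mki67 and Top2a, with exceptions in both directions. In cells thinned to 4000 UMIs, dividing lymphatic cells held a median of 16 and 12.5 member UMIs in libraries 1 and 2, and non-dividing ones held 2 in both libraries. Dividing blood cells held 14 and 13 member UMIs, and non-dividing ones 2 in both. Dividing pericyte-like cells (11 and 16 cells) held 10 and 13, and non-dividing ones 2 in both. Cells with UMIs of only Mki67 or only Top2a held 2 and 3 in lymphatic, 3 and 3 in blood and 5.5 and 6 in pericyte-like cells. Summed over the members, cells with 1 of the 2 markers held 783 and 1639.6 CPM in lymphatic cells, against 601 and 789 CPM in non-dividing ones. In blood cells they held 1495 and 1426 CPM, against 532 and 639 CPM in non-dividing ones, so each sum lay above that of non-dividing cells of the same library. Before thinning, the medians were 72 and 62.5 in dividing and 4 and 4 in non-dividing lymphatic cells. A member was detected in 5.59% (Gins1) to 67.1% (Tyms) of dividing endothelial cells of library 1 and in 7.17% (Ccne2) to 65.7% (Tyms) of those of library 2. The median over members was 30.8% and 26.0% in dividing, against 4.09% and 5.42% in non-dividing cells at the same 4000 UMIs. No gated class is known to lack these genes, so the share that free RNA gives was not measured in such a class.

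Some cells with no UMI of Mki67 or Top2a held as many member UMIs as the median dividing cell. They were 2 of 239 (0.837%) and 11 of 447 (2.46%) non-dividing lymphatic cells, and 9 of 776 (1.16%) and 13 of 928 (1.40%) non-dividing blood cells. These cells held few UMIs of the 24 G2/M genes, with medians of 0.5 and 1 in lymphatic and 1 and 0 in blood cells. Dividing cells held 23 and 17.5 in lymphatic and 19 and 14 in blood cells. Non-dividing cells as a whole held a median of 0 in each lineage and library. The high member count and the lack of Mki67 and Top2a chose these cells, so their low G2/M count cannot be told apart from that choice.

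**Figure D2:**
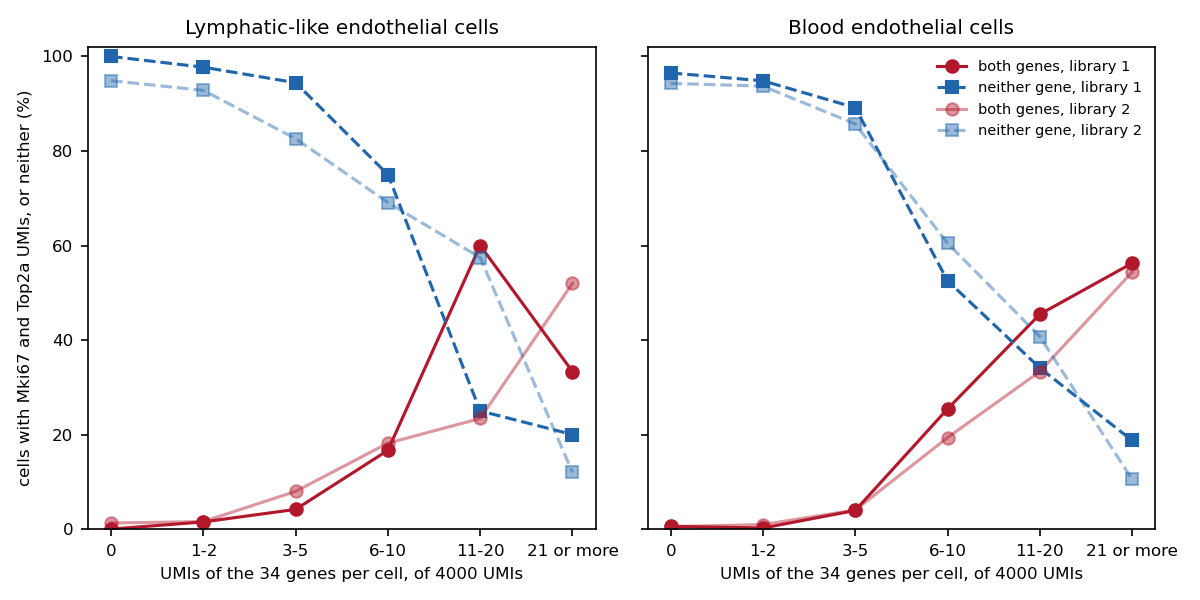
Share of cells (y axis, percent) with UMIs of both Mki67 and Top2a (red circles) or of neither (blue squares), by the cell's UMIs of the 34 genes (x axis), all counted in cells thinned to 4000 UMIs, in lymphatic-like cells (left) and blood endothelial cells (right) of library 1 (dark) and library 2 (light). In lymphatic cells, 33.3% and 52.0% of cells with 21 or more member UMIs held both genes, against 0% and 1.28% of cells with none, and the top group of library 1 holds 15 cells.

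Among dividing cells, the replication genes were lower where the G2/M genes were high, except for most of the nucleotide supply genes. Dividing endothelial cells, both lineages together, were split in each library at the median of their G2/M UMIs after thinning, which left 68 and 128 cells with a high sum and 75 and 137 with a low sum. The 24 G2/M genes include cyclin B, Cdk1 and kinetochore genes and hold no member. The split cuts through a range of values, and 21 and 30 cells lay within 3 UMIs of it. The members summed to 3219.7 and 2500.2 CPM in cells with a high G2/M sum and 4669 and 4131 CPM in cells with a low one. The high set was lower in both libraries. In edgeR, 24 of 34 members were lower and 0 higher with a high sum, where 11.7% of 9584 genes passed and 5.51% as lower. The median log2 change of the members was -0.90, against -0.01 over all genes. This fit left 1 residual degree of freedom, so its p-values lean on a spread shared across genes. DESeq2 called 17 members lower, and the share of all genes it called is not given here. Cells with a high sum were a little shallower, with median depths of 14847.5 and 13720 UMIs against 17372 and 16637 UMIs, and the part of depth in the result was not tested.

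The loading factors Cdc6 and Cdt1 had the lowest log2 changes of the 34 members. Cdc6 fell to 7.22 and 5.77 CPM in cells with a high G2/M sum, against 46.9 and 27.2 CPM in cells with a low sum, a log2 change of -2.41 ± 0.30. Cdt1 had 11.7 and 8.65 CPM with a high sum and 55.7 and 47.9 CPM with a low sum, a log2 change of -2.35 ± 0.25. For both genes the libraries did not overlap, and the share of all genes for which this held was not counted. Of the helicase subunits, Mcm4 had 27.1 and 22.6 CPM and 97.5 and 74.7 CPM in the same order, a log2 change of -1.75 ± 0.18, and those of the other 5 ran between -1.36 (Mcm2) and -1.07 (Mcm7). Gmnn, the inhibitor of licensing, was the licensing gene that did not pass, at -0.29 ± 0.11 (edgeR adjusted p = 0.0506). All 3 entry genes fell. E2f1 had 28.9 and 29.3 CPM with a high sum and 92.3 and 94.6 CPM with a low sum, a log2 change of -1.66 ± 0.17. Ccne2 changed by -1.79 ± 0.26 and Ccne1 by -1.40 ± 0.23.

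The enzymes of DNA copying were in between. Pcna had 60.5 and 49.5 CPM with a high sum and 133 and 141 CPM with a low sum, a log2 change of -1.34 ± 0.14. Lig1 changed by -1.14 ± 0.11, Rpa2 by -1.14 ± 0.14, Rfc3 by -0.89 ± 0.15, Rfc2 by -0.71 ± 0.13, Pola1 by -0.80 ± 0.20 and Prim1 by -0.53 ± 0.14. These 7 passed, while Fen1 (-0.17 ± 0.13), Rfc4 (-0.31 ± 0.15), Rfc5 (-0.11 ± 0.15) and Pold1 (-0.39 ± 0.17) did not. Of the helicase activators, Gins2 changed by -1.25 ± 0.16, Mcm10 by -0.92 ± 0.28 and Gins1 by -0.74 ± 0.27, and Cdc45 did not pass at -0.39 ± 0.17. Uhrf1 changed by -1.19 ± 0.14 and Slbp by -0.68 ± 0.10.

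Of the 5 nucleotide supply genes, Dut fell and the other 4 did not pass. Dut had 249 and 213 CPM with a high sum and 380.3 and 356 CPM with a low sum, a log2 change of -0.66 ± 0.09. Rrm2 had 295 and 201 CPM with a high sum and 270.4 and 203 CPM with a low sum, a log2 change of 0.07 ± 0.09 (edgeR adjusted p = 0.704). Tk1 had 314 and 214 CPM with a high sum and 288 and 181 CPM with a low sum, a log2 change of 0.21 ± 0.09 (edgeR adjusted p = 0.126). The libraries overlapped between the sets for both. Rrm1 stood at 0.14 ± 0.10 and Tyms at -0.09 ± 0.09. These calls depended on the setting. One setting took the dividing state from thinned cells, with a UMI of Mki67 or Top2a enough, so it changes the rule as well as the depth. There Rrm2 (0.30, edgeR adjusted p = 0.0250), Rrm1 (0.41, edgeR adjusted p = 0.00720) and Tk1 (0.68, edgeR adjusted p = 4.34e-06) passed as higher with a high sum. In that setting 20 members passed as lower, and the share of all genes is not given here. With doublets kept, Tk1 passed as higher (0.29, edgeR adjusted p = 0.0198). None of the 3 passed as lower in these settings. Of the 11 members with an E2F-type motif in the promoter window, 10 were lower with a high sum, with a median log2 change of -1.19. Of the 17 matched members without it, 9 were lower, with a median of -0.53. This is a description, and the relation was not tested.

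**Figure D3:**
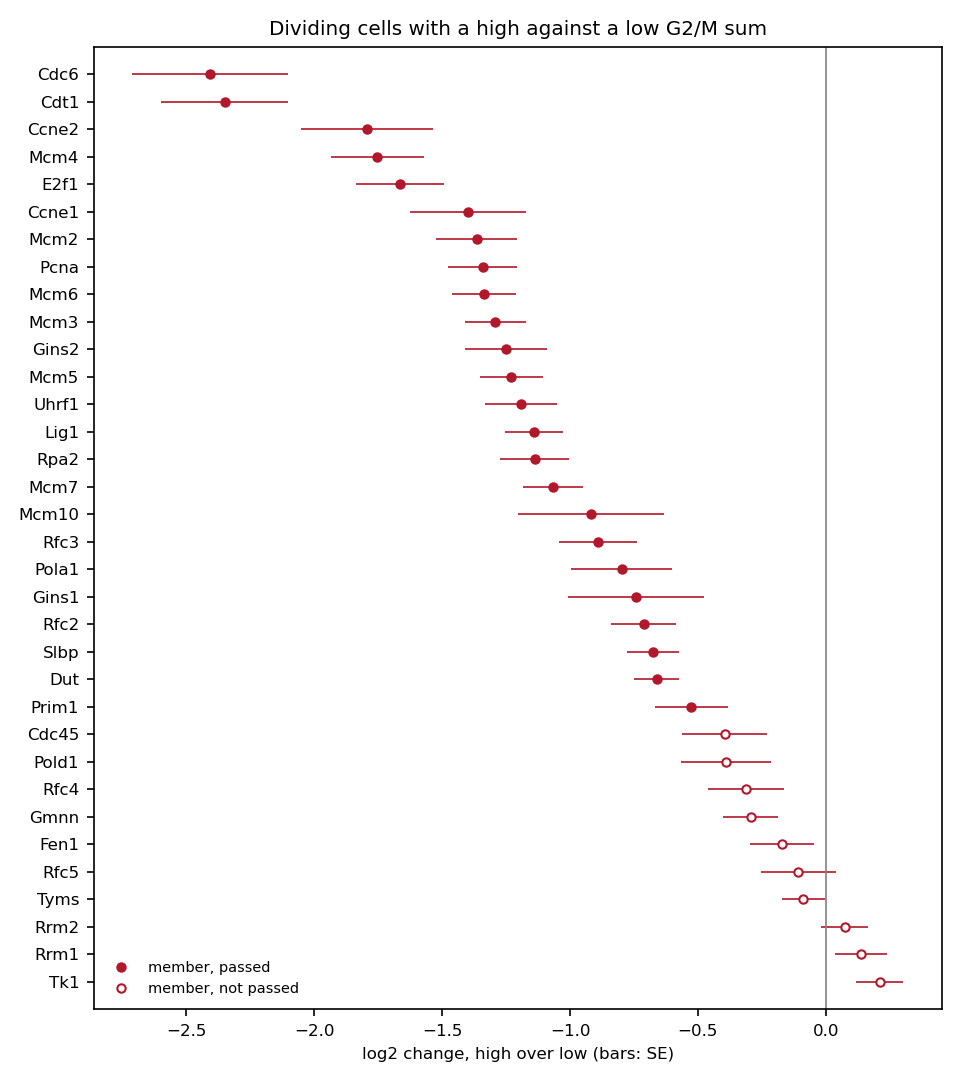
Log2 change of each of the 34 genes between dividing cells with a high and a low G2/M sum (x axis, bars are SE, n = 2 libraries), ordered from the lowest, with filled points for genes that passed an adjusted p of 0.05. Cdc6 and Cdt1 lie lowest at -2.41 and -2.35, and Rrm2, Rrm1 and Tk1 lie just right of 0.

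Other replication genes were also mostly lower with a high G2/M sum. Of 61 tested, 32 were lower and 3 higher. Ung, which removes uracil from DNA, had 2.71 and 0.481 CPM with a high sum and 57.2 and 47.9 CPM with a low sum, a log2 change of -5.25 ± 0.39. Hells, a chromatin remodeller, changed by -1.95 ± 0.18 and the chromatin assembly subunit Chaf1b by -1.81 ± 0.17. Ccna2, in contrast, was higher by 1.47 ± 0.10, as were Mki67 by 1.06 ± 0.08 and Top2a by 1.12 ± 0.08. The CDK inhibitors Cdkn2d and Cdkn2c were higher by 1.46 ± 0.11 and 1.44 ± 0.11.

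Across the classes, the replication genes were lowest in artery-like cells. The members summed to 708 and 565 CPM in artery-like cells of libraries 1 and 2. They summed to 1431 and 1492 CPM in lymphatic-like, 1221 and 1521 CPM in tip-like, 1231 and 1355 CPM in vein-like, 1360.1 and 1375 CPM in capillary-like and 1585 and 1497 CPM in other blood cells. Artery-like cells lay below every other endothelial class, while the order of the other classes differed between the libraries. Of the 34 members, 30 had both artery-like values below every value of the other endothelial classes, against 10.1% of all genes tested, and 31 had their lowest value in artery-like cells within each library, against 13.5%. Dividing cells were also rarest there, at 2.26% (exact 95% interval 0.835 to 4.86) of 265 cells and 3.27% (1.51 to 6.12) of 275 cells. In capillary-like cells they were 14.1% (9.35 to 20.1) of 177 cells and 13.6% (9.58 to 18.6) of 242 cells. Shares in the other classes lay between 10.0% (vein-like, library 1) and 17.1% (tip-like, library 2). Artery-like cells were somewhat shallower, with medians of 6492 and 5858 UMIs against 7961 and 7900.5 in capillary-like cells, and thinning to 4000 UMIs gave dividing shares of 2.14% and 3.56% in artery-like and 10.1% and 9.09% in capillary-like cells.

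**Figure D4:**
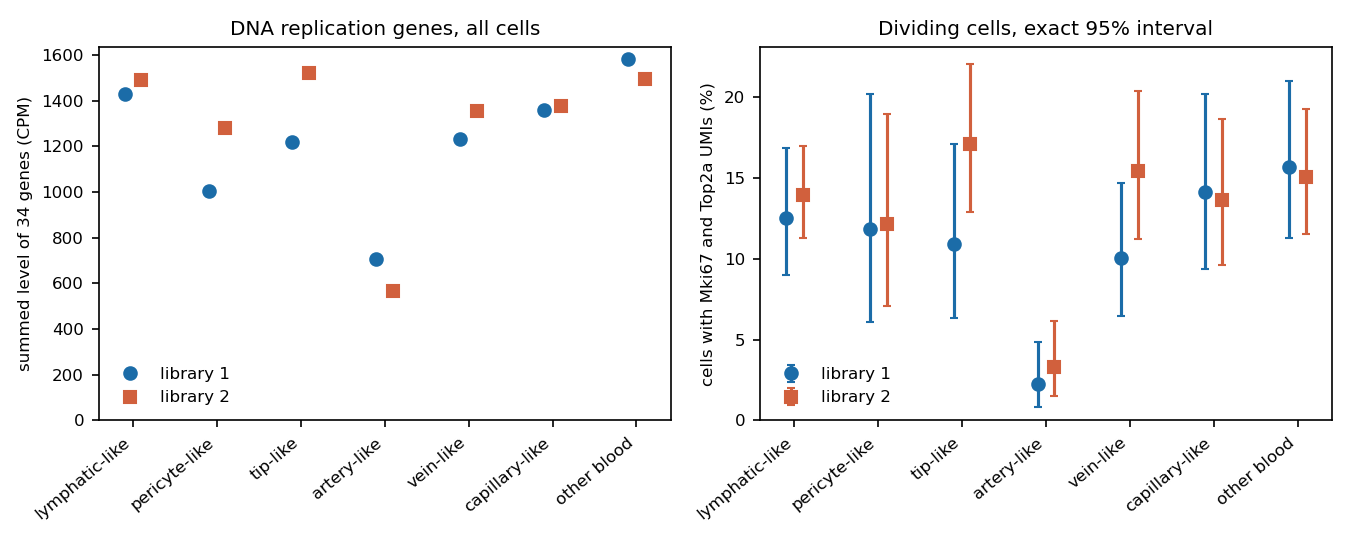
Summed level of the 34 genes (left, y axis, CPM) and share of dividing cells with exact 95% intervals for counting error (right, y axis, percent) in each class (x axis) of library 1 (blue circles) and library 2 (orange squares). Among endothelial classes, artery-like cells are lowest in both panels, with 708 and 565 CPM and 2.26% and 3.27% dividing cells.

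Against capillary-like cells, 27 of 34 members were lower in artery-like cells and 0 higher (edgeR), where 18.5% of 11342 genes passed, 9.68% as higher and 8.84% as lower. All 34 changes were negative, with a median of -1.28 against a median within 0.01 of 0 over all genes. All 5 nucleotide supply genes, all 3 polymerase and primase genes and 8 of 9 licensing genes were among the 27. Cdc6 had 2.49 and 0.495 CPM in artery-like and 12.4 and 4.45 CPM in capillary-like cells, a log2 change of -2.39 ± 0.68 (edgeR adjusted p = 0.0172). Gins1 had 1.49 and 0.990 CPM in artery-like and 6.83 and 7.57 CPM in capillary-like cells, a log2 change of -2.46 ± 0.61 (edgeR adjusted p = 0.00697). Both genes rest on few UMIs, and the better counted genes moved the same way. Rrm2 had 17.4 and 14.4 CPM in artery-like and 80.7 and 63.6 CPM in capillary-like cells, a log2 change of -2.16 ± 0.26 (edgeR adjusted p = 6.07e-06). Mcm5 had 15.4 and 12.9 CPM in artery-like and 47.8 and 49.0 CPM in capillary-like cells, a log2 change of -1.75 ± 0.23 (edgeR adjusted p = 1.58e-05). Tk1 changed by -1.93 ± 0.26, Uhrf1 by -1.92 ± 0.35, Cdt1 by -2.07 ± 0.44, Tyms by -1.20 ± 0.17 and Pcna by -0.80 ± 0.18. Those that did not pass were Mcm4 (-0.57 ± 0.22), Mcm10 (-1.56 ± 0.64), Cdc45 (-0.83 ± 0.32), Rfc3 (-0.26 ± 0.19), Rfc5 (-0.61 ± 0.30), Ccne1 (-1.19 ± 0.57) and Ccne2 (-1.34 ± 0.73).

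The artery-like difference was smaller among non-dividing cells. With non-dividing cells only, a setting added after seeing the data, 2 of 28 members tested passed, both lower: Cdt1 at -1.81 and E2f1 at -0.97 (log2), where 13.5% of genes passed. The median change was then -0.44. Non-dividing artery-like cells held 11.8 and 12.3 CPM of E2f1 and 3.22 and 1.76 CPM of Cdt1, against 17.6 and 30.0 CPM and 6.49 and 11.3 CPM in non-dividing capillary-like cells. The members summed to 491 and 474 CPM in non-dividing artery-like and 515 and 696 CPM in non-dividing capillary-like cells, so library 1 showed little difference and library 2 most of it. Over all cells, a stricter class gate called 13 of 34 members, where 13.9% of genes passed, and a 5% mitochondrial limit called 16 of 33 members tested, where 9.90% of genes passed.

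The other cell cycle genes moved with the module in artery-like cells. Of 60 other replication genes tested, 27 were lower and 1 higher, and of 24 G2/M genes 23 were lower, with a median of -1.31. Ccnd1, the D-type cyclin that drives G1, had 132 and 161 CPM in artery-like and 706 and 642 CPM in capillary-like cells, a log2 change of -2.20 ± 0.15. The CDK inhibitor Cdkn1c was higher by 2.19 ± 0.24, with 216 and 243 CPM in artery-like and 45.3 and 54.3 CPM in capillary-like cells. In non-dividing cells, Ccnd1 had 135 and 167 CPM in artery-like and 665 and 605 CPM in capillary-like cells, and Cdkn1c had 222 and 254 CPM and 49.1 and 65.4 CPM in the same order. These values are a description.

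Several replication genes were higher in lymphatic-like cells than in blood endothelium and E2f1 and Slbp were lower, in a comparison in which many other genes also passed. Against the mean log level of the 5 blood classes, 16 of 34 members were higher and 2 lower, where 46.7% of genes passed and 23.8% as higher. The median log2 change was 0.29, against 0.02 over all genes. In comparisons with the 5 blood classes, the blood CPM printed are pooled over all blood cells. Their ratio therefore need not match the log2 change. Gins1 had 8.25 and 13.3 CPM in lymphatic-like and 5.35 and 6.96 CPM in blood cells, a log2 change of 1.16 ± 0.24 (edgeR adjusted p = 5.93e-04). Dut had 127 and 154 CPM in lymphatic-like and 88.8 and 101 CPM in blood cells, a log2 change of 0.67 ± 0.08 (edgeR adjusted p = 1.15e-06). E2f1 had 15.3 and 18.4 CPM in lymphatic-like and 26.0 and 37.4 CPM in blood cells, a log2 change of -0.83 ± 0.12 (edgeR adjusted p = 1.24e-05). Slbp changed by -0.34 ± 0.09. The difference was smaller without the artery-like class. With artery-like cells left out of the blood classes, a setting added after seeing the data, 6 members were higher and 2 lower, where 43.7% of genes passed, and the median was 0.065. The 6 were Dut (0.41), Gins1 (0.68), Gins2 (0.48), Rfc3 (0.46), Rrm1 (0.36) and Mcm7 (0.28), and E2f1 stood at -1.07. DESeq2 called 7 members over all blood classes, where it called 29.8% of genes.

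Within dividing cells, 2 members passed between the lineages, E2f1 and the polymerase delta subunit Pold1, both lower in lymphatic cells (edgeR, where 26.3% of all genes passed and 14.1% as lower). An unadjusted p under 0.05 was seen for 6 members, and members that did not pass were not shown to be equal. E2f1 had 51.0 and 40.1 CPM in lymphatic and 69.2 and 79.7 CPM in blood dividing cells, a log2 change of -0.82 ± 0.24 (edgeR adjusted p = 0.0198). Pold1 had 44.1 and 33.1 CPM in lymphatic and 57.2 and 54.2 CPM in blood dividing cells, a log2 change of -0.60 ± 0.19 (edgeR adjusted p = 0.0314). The members' median was 0.02, against -0.01 over all genes, with 18 positive and 16 negative. DESeq2 called neither gene, and depth differed, with medians of 17762 and 19785.5 UMIs in lymphatic and 14399 and 13574 UMIs in blood dividing cells.

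Within non-dividing cells, 13 members were higher and 2 lower in lymphatic cells, where 40.8% of genes passed and 22.6% as higher, with a median of 0.52 against 0.09 over all genes. The helicase genes Mcm3, Mcm5, Mcm6 and Mcm7, the activators Gins1, Gins2 and Cdc45, the loader genes Rfc3 and Rfc5, and Rpa2, Lig1, Rrm1 and Dut were higher. Rfc3 had 39.9 and 44.0 CPM in lymphatic and 25.9 and 22.4 CPM in blood non-dividing cells, a log2 change of 0.89 ± 0.14 (edgeR adjusted p = 1.76e-04). Mcm3 had 52.4 and 59.3 CPM in lymphatic and 31.3 and 39.1 CPM in blood non-dividing cells, a log2 change of 0.73 ± 0.14 (edgeR adjusted p = 8.74e-04). Mcm7 had 33.9 and 38.7 CPM in lymphatic and 21.1 and 25.6 CPM in blood non-dividing cells, a log2 change of 0.71 ± 0.18 (edgeR adjusted p = 0.00590). For these 3 genes each lymphatic value lay above each blood value, and the share of all genes that did so was not counted. E2f1 was lower, with 3.86 and 9.78 CPM in lymphatic and 13.7 and 22.3 CPM in blood non-dividing cells, a log2 change of -1.21 ± 0.28 (edgeR adjusted p = 0.00301). Slbp was lower too, with 29.2 and 44.2 CPM in lymphatic and 57.2 and 64.5 CPM in blood non-dividing cells, a log2 change of -0.60 ± 0.22. The count depended on the setting, with 3 members called by DESeq2, 6 with the state set from thinned cells and 3 with a 5% mitochondrial limit, where Gins1 (-0.17) and Cdc45 (-1.33) turned negative. The share of all genes that passed was 25.9%, 37.7% and 25.4% in these settings. Without library 2 the median was 0.25 and Gins1, at 1.26 ± 0.37 with both libraries, was 0.15.

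**Figure D5:**
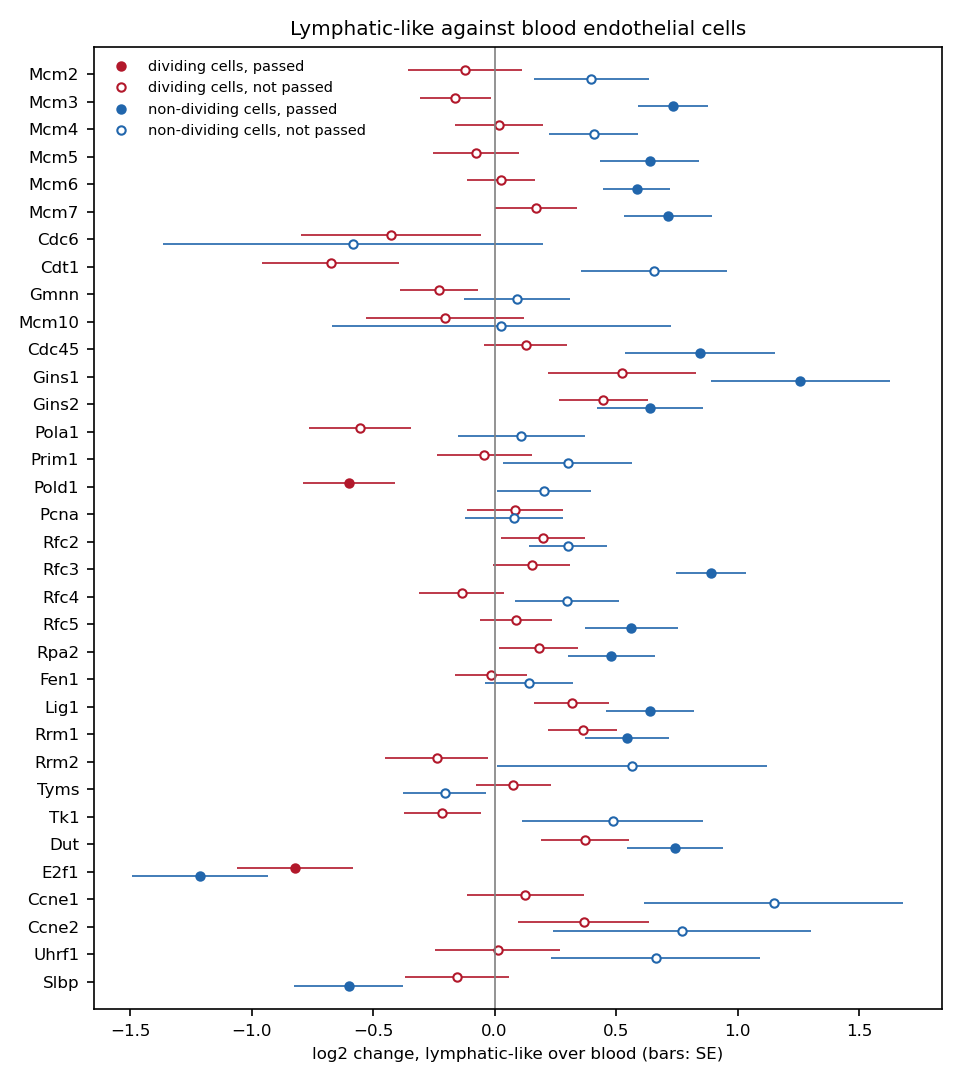
Log2 change of each of the 34 genes in lymphatic-like over blood endothelial cells (x axis, bars are SE, n = 2 libraries), for dividing cells (red) and non-dividing cells (blue), with filled points for genes that passed an adjusted p of 0.05. In dividing cells E2f1 and Pold1 passed, both left of 0, and in non-dividing cells 13 genes passed right of 0 and E2f1 and Slbp left of it.

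Of 60 other replication genes tested over all cells, 18 were higher and 5 lower in lymphatic-like cells, where 46.7% of all genes passed. The 3 subunits of ribonuclease H2, which removes ribonucleotides from DNA, were higher by 0.79 ± 0.12 (Rnaseh2a), 0.73 ± 0.10 (Rnaseh2b) and 0.48 ± 0.08 (Rnaseh2c). Dtl, which directs Cdt1 to degradation, was higher by 0.85 ± 0.15. E2f2 was higher in non-dividing lymphatic cells by 3.95 ± 0.53, with 16.3 and 5.53 CPM in lymphatic and 0.846 and 0.443 CPM in blood cells, opposite to E2f1. Of the G1 and arrest genes, Cdkn1a changed by -2.24 ± 0.16, Ccnd1 by -1.37 ± 0.11 and Cdk6, a partner of D-type cyclins, by 1.64 ± 0.12. Ccnd1 had 163 and 199 CPM in lymphatic-like and 497 and 577 CPM in blood cells. Of the 24 G2/M genes, 14 were higher and 0 lower in lymphatic-like cells.

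No member passed in tip-like or vein-like against capillary-like cells with the settings used throughout. In edgeR, 0 of 34 members passed in tip-like against capillary-like cells, where 4.12% of genes passed, 2.12% as higher and 1.99% as lower, and Cdc45 (0.67 ± 0.25) and Ccne1 (0.92 ± 0.41) had an unadjusted p under 0.05. DESeq2 also called 0. In vein-like against capillary-like cells, 0 of 34 passed, where 9.13% of genes passed, 4.92% as higher and 4.21% as lower, and 2 had an unadjusted p under 0.05, Rrm2 (-0.59 ± 0.21) and E2f1 (-0.49 ± 0.16). DESeq2 called 0 there as well. Rrm2 had 42.6 and 50.1 CPM in vein-like and 80.7 and 63.6 CPM in capillary-like cells. It passed as lower in vein-like cells without the low-count filter (-0.59, edgeR adjusted p = 0.00551) and with the stricter class gate (-0.96, edgeR adjusted p = 0.0154), and was 0.074 with the 5% mitochondrial limit. A p-value that misses the threshold does not show that these classes have equal levels.

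Between pericyte-like cells and blood endothelium, 1 member passed, Tyms, which was lower in pericyte-like cells, where 23.4% of genes passed and 9.32% as lower. Tyms had 52.1 and 90.4 CPM in pericyte-like and 115 and 122 CPM in blood cells, a log2 change of -0.61 ± 0.14 (edgeR adjusted p = 0.00314). It was also lower with artery-like cells left out of the blood classes (-0.86) and with non-dividing cells only (-0.99). The members summed to 1006 and 1281 CPM in pericyte-like and 1232 and 1320.0 CPM in blood cells, with dividing shares of 11.8% and 12.1% against 10.2% and 13.0%. In dividing pericyte-like cells the members summed to 2703 and 3069.8 CPM, against 482 and 670.3 CPM in non-dividing ones. Of the G1 genes, Ccnd2 was higher in pericyte-like than in blood cells, by 1.58 ± 0.08. The endothelial markers in pericyte-like cells, given above, lie beside this comparison and their part in it was not tested.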

How the data were processed

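Droplet libraries (10x Genomics 3′ v3) were read from the deposited matrices of whole-number UMI counts, 1 per library, with 1745 and 2877 barcodes and 15989249 and 26675353 UMIs. The counts are as the authors deposited them, not normalized, and the submitters' processing notes name Cell Ranger, Seurat 3.0.2 and build mm10 without saying which step each served. Software version 3.0.2 stands in the matrix headers. The antibody-tag libraries of the same cells were not used here.

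Cells with at least 500 genes and at most 10% mitochondrial UMIs were kept, and Scrublet (scanpy 1.11.5) removed 2 and 11 doublets, leaving 1498 and 2239 cells. Endothelial cells carried at least 2 of 6 endothelial markers, lymphatic-like cells at least 4 of 9 and pericyte-like cells at least 4 of 10 of their markers. The 52 and 83 cells with at least 3 markers of erythroid, keratinocyte, immune or fibroblast cells were left out. Blood cells took the artery, vein, capillary or tip class of highest mean z-score where it led by 0.2, and otherwise other blood. The names rest on these gates and not on the authors' annotation. Per-cell values used cells thinned to 4000 UMIs. Exact (Clopper-Pearson) 95% intervals cover counting error only.

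Sums of UMIs over the cells of a class in a library were tested across all genes with edgeR 4.0.16 (quasi-likelihood, TMM, filterByExpr, library as block, Benjamini-Hochberg over all genes, threshold 0.05) in R 4.3.3. The fits had 14 sums and 6 residual degrees of freedom for classes, 8 and 3 for states, and 4 and 1 for the G2/M split. Each library gave cells to every class, so the library pairs the sums by design. Counts were also simulated with the same spread for every gene and no library effect, unlike the data. On these, the test recovered 58.2% of genes changed by 1 and 97.9% of those changed by 2 (log2) in the G2/M split over 9542 genes. For dividing against non-dividing blood cells it recovered 62.2% and 90.0%, with 6.21% of calls false. These figures do not give the power in the data.

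All 34 members could be named, and of 2 lists (other replication genes, G1 and arrest genes) up to 4 genes per comparison with the smallest adjusted p among those that passed. The members and lists were chosen with earlier results of these data known. Alternatives were DESeq2 1.42.0, RLE scaling, no low-count filter, no block, leaving out a library, no doublet removal, a 5% mitochondrial limit, a stricter class gate, and a state set from thinned cells or from Mki67 alone. In the tests the thinned state took a UMI of Mki67 or Top2a as dividing. The thinned shares of dividing cells required UMIs of both genes.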

Additional observations from a re-analysis of the deposited data

Results flagged for a closer look

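The replication genes were also measured in barcodes that no comparison used. Cells that passed the filters but were given no class (55 in library 1 and 94 in library 2) held 1869 and 1639 CPM of the 34 genes, from 1279 and 1932 UMIs. Cells left out for at least 3 markers of erythroid, keratinocyte, immune or fibroblast cells (52 and 83) make up most of them. These levels lay above those of every gated class, whose highest was 1585 CPM (other blood, library 1). Barcodes over the mitochondrial limit (219 and 582 after the other filters) held 1319 and 1264 CPM, within the range of the gated blood classes. They were singled out because their level exceeds what a count of 0 allows in data outside the comparisons, and the cells of neither set have a class.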

How the results depend on the processing

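With 2 libraries, a fit without one of them has no residual degrees of freedom, so single values and medians are given for it and no count. In dividing against non-dividing cells, the calls were 34 in lymphatic (33 with the thinned state) and 34 in blood cells. They stayed within 1 member under each setting that gave a count. DESeq2 called 17 members in the G2/M split and 20 in artery-like cells, and its shares of all genes there are not given. The 5% mitochondrial limit gave no test for dividing lymphatic or pericyte-like cells, which fell under 20 cells in a library, and its dividing share of pericyte-like cells below rests on 27 and 19 cells.

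Without the library block, in the check of pairing, 34 members passed in lymphatic and 34 in blood dividing cells, and 0 for the difference between them. For lymphatic against blood cells, 1 passed in dividing and 11 in non-dividing cells, where 21.5% and 32.1% of all genes passed. In lymphatic-like cells 12 passed, where 39.0% of genes did. Further counts were 18 in the G2/M split, 22 in artery-like, 0 in tip-like and vein-like and 1 in pericyte-like cells. Shares of all genes are not printed for the other counts.

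Other counts of members called moved as follows, and the cause was not tested. Without the low-count filter, 2 passed for the difference between lineages, where 1.74% of all genes passed. There were 4 in lymphatic against blood dividing cells, where 17.4% of genes passed, 1 in vein-like and 2 in pericyte-like cells. DESeq2 called 0 in lymphatic against blood dividing cells, 3 in non-dividing and 7 over all cells, where it called 19.5%, 25.9% and 29.8% of genes. The thinned state gave 1 in dividing and 6 in non-dividing cells, where 25.9% and 37.7% of genes passed. The 5% limit gave 3 in non-dividing lymphatic cells, where 25.4% of genes passed, 16 in artery-like and 1 in vein-like cells. The stricter gate gave 13 in artery-like, 1 in vein-like and 3 in pericyte-like cells. Non-dividing cells alone gave 2 in artery-like and 2 in pericyte-like cells. Blood classes without artery-like cells gave 8 in lymphatic-like and 4 in pericyte-like cells. The shares of all genes for these artery-like and lymphatic-like counts are given above, and those for vein-like and pericyte-like cells are not printed.

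Several signs turned. The median for lymphatic against blood dividing cells was -0.00083 without the filter, -0.095 without library 1 (0.042 without library 2), -0.0017 with doublets kept and -0.0044 with the thinned state. That of pericyte-like cells was 0.11 with the stricter gate and 0.14 in non-dividing cells. That of vein-like cells, -0.06, was 0.34 with the 5% limit, 0.02 without library 1 and 0.014 with the stricter gate. That of tip-like cells, 0.042, was -0.17 without library 2, -0.094 in non-dividing cells and -0.0092 with DESeq2. With the 5% limit, Cdc45 was -1.33 and Gins1 -0.17 in non-dividing lymphatic cells, Rrm2 -0.28 in the G2/M split and 0.074 in vein-like cells. In the G2/M split, leaving out library 1 and library 2 in turn gave -0.0024 and 0.17 for Rrm2, -0.15 and 0.0053 for Tyms, -0.29 and 0.18 for Rfc5, -0.63 and 0.0047 for Cdc45, and -0.52 and 0.0012 for Gmnn. With the thinned state, Rrm2 was 0.30, Tyms 0.20, Fen1 0.087, Rfc5 0.12 and Cdc45 0.023. In artery-like cells, Rfc5 was -1.13 without library 1, 0.012 without library 2 and 0.14 with the stricter gate, where Rfc3 was 0.061. In non-dividing artery-like cells, Gmnn was 0.0079, Mcm4 0.22, Rfc3 0.23 and Rfc5 0.71.

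Leaving out either library put the median between 2.15 and 2.93 in lymphatic and 2.62 and 2.92 in blood dividing cells, -0.46 and -0.17 for their difference, 0.25 and 0.41 in lymphatic against blood non-dividing cells, -1.02 and -0.81 in the G2/M split, -1.43 and -0.90 in artery-like, 0.23 and 0.41 in lymphatic-like and -0.28 and 0.13 in pericyte-like cells.

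Mean shares of dividing cells, in the order thinned, Mki67 alone and 5% limit, were 7.92%, 18.6% and 14.7% in blood, 9.58%, 19.5% and 17.0% in capillary-like, 8.32%, 17.6% and 19.7% in lymphatic-like, 9.95%, 27.3% and 16.1% in other blood, 9.39%, 20.98% and 14.2% in pericyte-like and 8.31%, 20.9% and 19.8% in vein-like cells. In tip-like cells they were 9.16% thinned and 20.1% with Mki67 alone, and in artery-like cells 5.53% with Mki67 alone and 4.16% with the 5% limit. Depth limits single members of few UMIs, such as Gins1, Ccne1 and Ccne2.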
